A study of Mus musculus with 8 samples.

Results

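Tmem genes encode proteins named for a predicted stretch that crosses a membrane, and their numbers record the order of naming rather than a shared ancestor or function. Members serve in lysosomes, the Golgi, the endoplasmic reticulum, mitochondria, cilia and the cell surface. The genes described here are those of the deposited m6A peak lists whose symbol begins with Tmem and a digit. They were 52 of 6487 genes with a peak, with 37 of 6709 peaks in Mettl3 cKO cells and 55 of 8397 peaks in Control cells.

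N6-methyladenosine (m6A) is a methyl mark on adenosines inside RNA, written mainly by METTL3 together with METTL14 and usually dense near stop codons and in 3′ UTRs. Reader proteins that bind the mark influence the splicing, export, translation and decay of the transcript. Hepatic stellate cells store vitamin A in the quiet liver and turn into matrix-producing myofibroblasts when cultured.

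Primary stellate cells lacking Mettl3 (cKO, labelled as an HSC-specific knockout) and cells of Control mice, labelled WT, were cultured for 7 days, during which they activate. The labels name C57BL/6J mice for all groups and state neither their age nor the Cre driver. Each genotype had 2 precipitated (m6A-RIP) and 2 input libraries, prepared from 100 µg of total RNA. The comparison rests on 1 deposited peak list per genotype, with no value per replicate, so no difference between genotypes has a replicate error or a test, and read depth is unknown. Positions are in the mm10 build.

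Of 11 stellate cell markers, 9 carried a peak in cKO cells and 9 in Control cells, Des, Pdgfrb, Acta2 and Col1a1 among them; Vim had no peak in either list. None of 5 hepatocyte markers had a peak. Markers of liver endothelium did, with 3 of 5 in cKO cells and 4 of 5 in Control cells, as did 1 of 6 macrophage markers in each list and 1 of 4 cholangiocyte markers in cKO cells. The part of these other cells in the results below was not tested. In such bulk RNA, fewer cells of a type and less RNA per cell cannot be told apart, and a peak that is missing from a list can also belong to a less abundant transcript.

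Fewer Tmem genes carried an m6A peak in cKO cells than in Control cells, with 28 genes in the cKO list and 43 in the Control list. The cKO list was also the shorter one over all genes, with 4300 genes beside 4986 in the Control list. Both lists held 19 of the 52 genes (36.5%, exact 95% interval 23.6 to 51.0), against 43.1% of all genes with a peak. In the cKO list alone were 9 genes (17.3%, 8.23 to 30.3), against 23.1% of all genes. The Control list alone held 24 genes (46.2%, 32.2 to 60.5), against 33.7% of all genes. All of these intervals, which cover counting error in the lists and nothing else, hold the share of all genes. Exonic widths summed over the Tmem peaks came to 7561 nucleotides for 37 cKO peaks and 14616 nucleotides for 55 Control peaks. The Control sum counts both of the nested Tmem185b peaks, and no such sum was made over all genes.

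Read the other way, 19 of 28 cKO Tmem genes also had a Control peak (67.9%, 47.6 to 84.1), close to the 65.1% of all cKO genes. Of the 43 Control Tmem genes, 19 also had a cKO peak (44.2%, 29.1 to 60.1), below the 56.1% of all Control genes but with an interval that holds it. Tmem genes had few peaks each, 1.32 per gene in cKO cells and 1.28 in Control cells, whereas all genes averaged 1.56 and 1.68. Among Tmem genes with 1 Control peak, 12 of 31 were also in the cKO list (38.7%, 21.8 to 57.8), beside 47.3% of all such genes. With 2 Control peaks it was 7 of 12 (58.3%, 27.7 to 84.8), beside 62.8%. When peaks were required to have a fold of at least 10, 11 Tmem genes were in both lists, out of 17 left in the cKO list and 36 in the Control list. With a log10 false discovery rate of -5 or lower there were 8, out of 17 and 21. The filters thus also shortened the lists, and the shares of all genes under them were not computed.

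**Figure D1:**
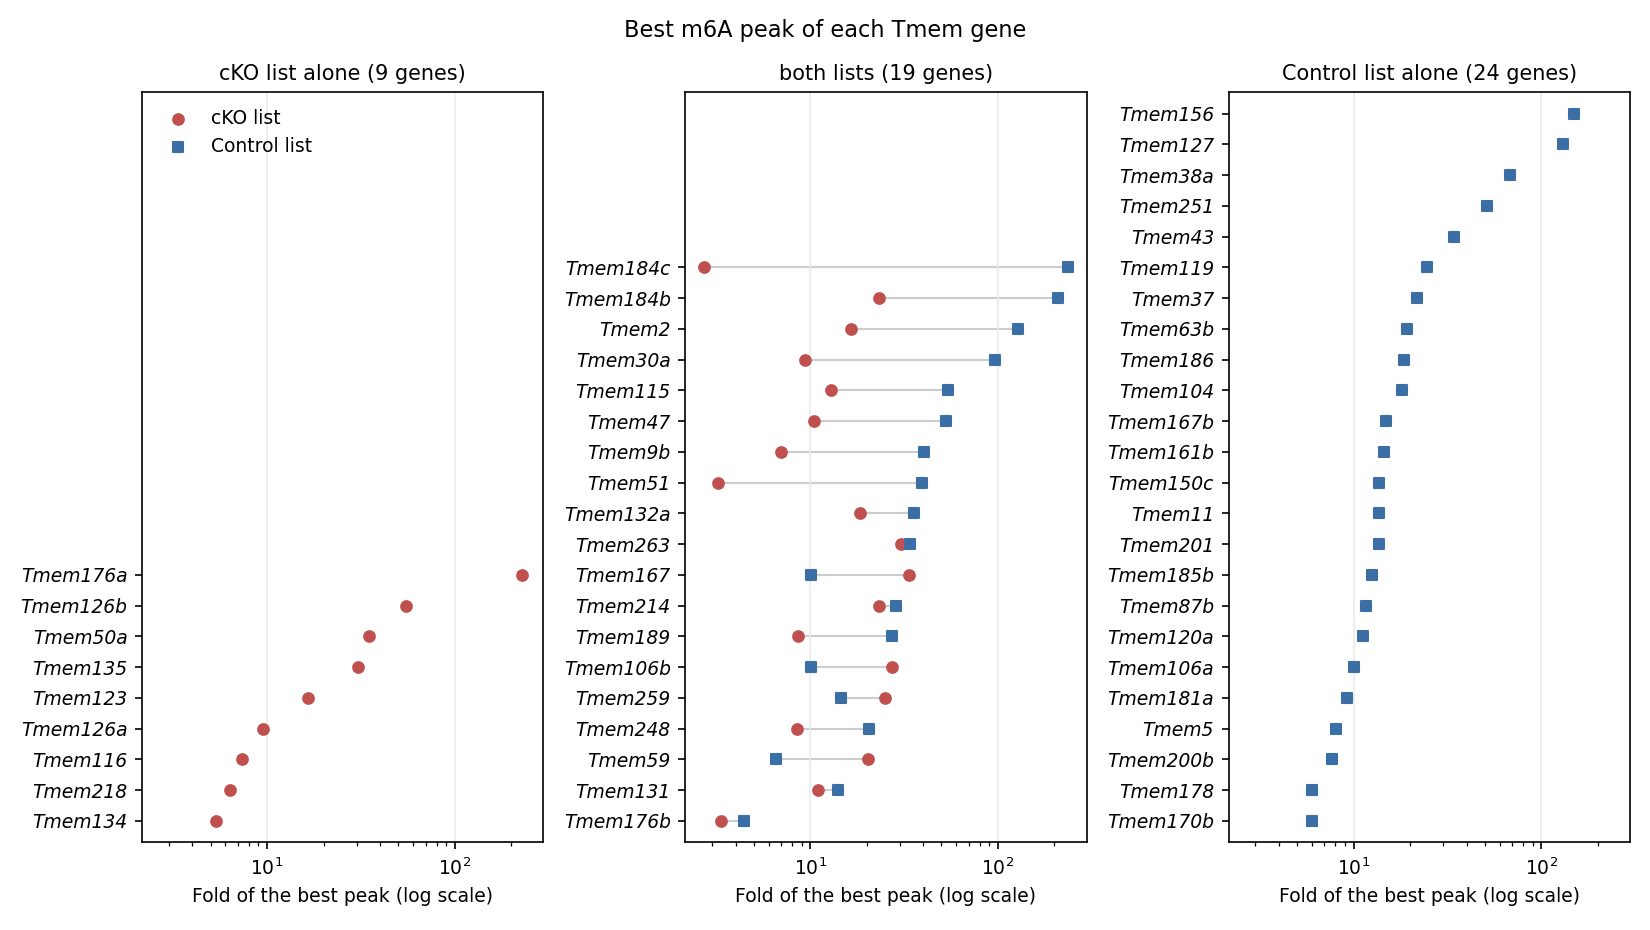
Fold enrichment of the best peak of each of the 52 Tmem genes on a log axis, with cKO values as circles and Control values as squares; grey lines join the values of a gene. Of the genes, 9 were in the cKO list alone, 19 in both lists and 24 in the Control list alone. Folds were computed by the authors within each genotype, so the length of a line is not a measured change.

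Control peaks of Tmem genes lay mostly in 3′ UTRs. Peaks in 3′ UTRs were 13 of 37 in cKO cells (35.1%, 20.2 to 52.5) and 36 of 55 in Control cells (65.5%, 51.4 to 77.8). Over all genes the shares were 23.9% and 31.7%, so the Control interval of the Tmem genes lies above the share of all Control peaks. The intervals of the cKO and Control Tmem peaks overlap, and the difference between them was not tested. Coding sequence held 13 cKO peaks (35.1%, 20.2 to 52.5) and 12 Control peaks (21.8%, 11.8 to 35.0), beside 53.5% and 53.0% of all peaks. In 5′ UTRs lay 3 cKO peaks (8.11%, 1.70 to 21.9), of Tmem116, Tmem135 and Tmem184b, and 1 Control peak (1.82%, 0.046 to 9.72), beside 7.56% and 2.32% of all peaks. Solute carrier (Slc) genes, another set of membrane proteins, had 48.8% of 41 cKO peaks (32.9 to 64.9) and 46.8% of 94 Control peaks (36.4 to 57.4) in 3′ UTRs. Both Slc intervals lie above the share of all peaks, so a raised 3′ UTR share was not particular to Tmem genes. Of the Control peaks of smaller membrane protein families, 5 of 5 for Tspan (47.8 to 100%) and 6 of 12 for Tmed and Tm9sf (21.1 to 78.9%) were in 3′ UTRs. The length of the 3′ UTRs was not analysed here.

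Of the 10 peaks of Tmem genes in the cKO list alone, 3 were in 3′ UTRs (interval 6.67 to 65.2%), beside 22.0% of such peaks over all genes. Of the 29 peaks of Tmem genes in the Control list alone, 22 were in 3′ UTRs (75.9%, 56.5 to 89.7), beside 37.3%. Counting the best peak of each Tmem gene gave 32.1% of 28 cKO genes and 62.8% of 43 Control genes in 3′ UTRs. The same count over all genes was not made. Measured to the 3′ end of the RefSeq gene, 7 of the 13 cKO 3′ UTR peaks and 14 of the 36 Control ones were centred within 500 nucleotides of it. This distance was not computed for the 3′ UTR peaks of all genes, so these counts only describe the Tmem peaks.

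**Figure D2:**
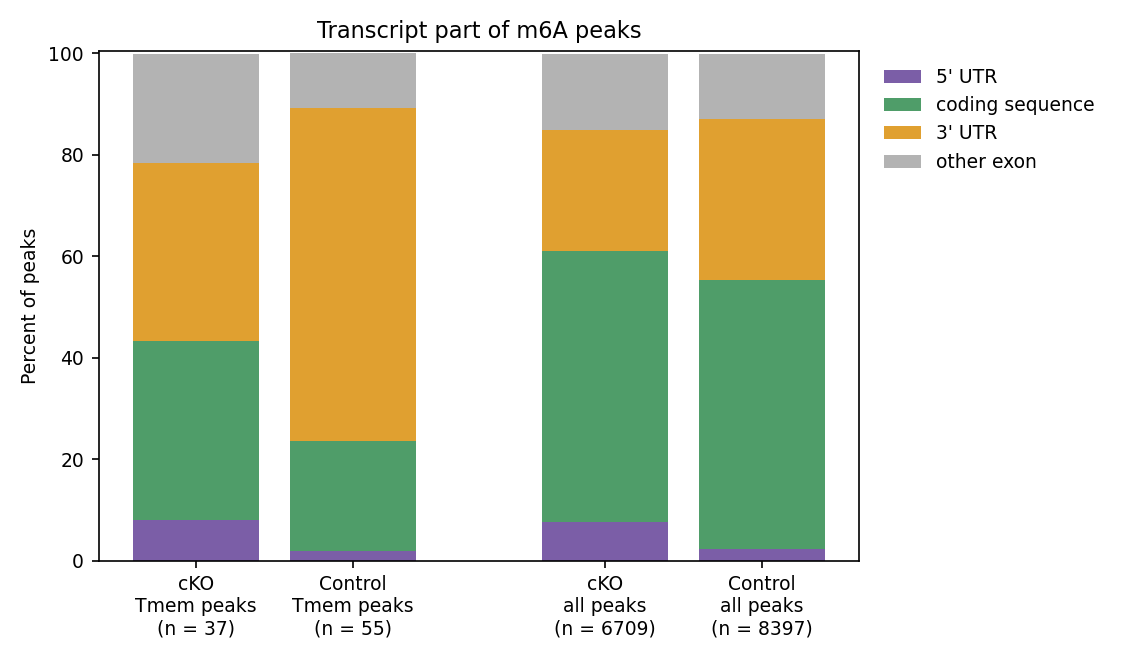
Percent of peaks in each transcript part, as the authors annotated them, for Tmem genes on the left and all genes on the right, with cKO before Control in each pair. Peaks in 3′ UTRs made up 35.1% of cKO and 65.5% of Control Tmem peaks, against 23.9% and 31.7% of all peaks.

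A counterpart, a peak of the other list that shares at least 1 base of exon on the same strand, was present for 16 of 37 cKO Tmem peaks (43.2%, 27.1 to 60.5). It was present for 16 of 55 Control Tmem peaks (29.1%, 17.6 to 42.9). Over all peaks the shares were 41.8% for cKO and 33.7% for Control, inside both intervals. In 3′ UTRs a counterpart was present for 6 of 13 cKO (46.2%) and 8 of 36 Control Tmem peaks (22.2%), near the 41.9% and 25.3% of all 3′ UTR peaks. Outside 3′ UTRs it was present for 10 of 24 cKO (41.7%) and 8 of 19 Control Tmem peaks (42.1%), beside 41.8% and 37.6% of all such peaks. Of the 19 genes in both lists, 15 had peaks that overlapped (78.9%, 54.4 to 93.9), beside 75.4% of all genes in both lists. Requiring that at least 50% of both peaks overlap left 24.3% of cKO and 16.4% of Control Tmem peaks with a counterpart. The shares of all peaks under this stricter rule were not computed.

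Wide peaks were found among the Control Tmem peaks and not among the cKO ones. No cKO Tmem peak was wider than 300 nucleotides (0 of 37, interval up to 9.49%), whereas 23.4% of all cKO peaks were. In Control cells 13 of 55 were wider (23.6%, 13.2 to 37), beside 30.1% of all Control peaks. Median widths were equal, at 210 nucleotides in both lists. Of the 16 Control peaks with a counterpart, 11 were wider than it, 4 were narrower and 1 was equal, and over all such Control peaks 44.4% were wider. Peaks of more than 1 exon block, which span a splice junction, made up 14 of 37 cKO Tmem peaks (37.8%, 22.5 to 55.2) and 9 of 55 Control Tmem peaks (16.4%, 7.77 to 28.8), beside 48.5% and 28.8% of all peaks.

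**Figure D3:**
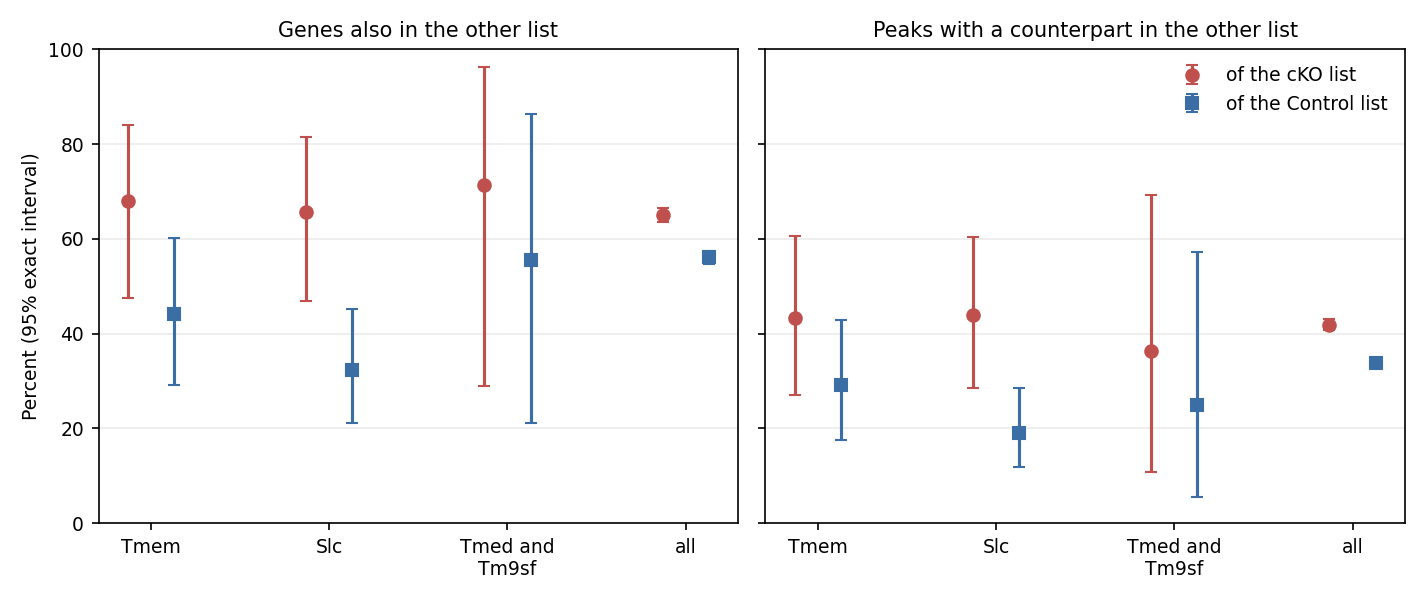
Left, percent of the genes of each list that are also in the other list; right, percent of its peaks with a counterpart. Circles are the cKO list, squares the Control list, and bars exact 95% intervals; for Tmem genes the left panel shows 67.9% of cKO and 44.2% of Control genes, with the share of all genes inside each interval.

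Fold enrichments of Tmem peaks were ordinary for their lists, with a median of 12.9 (quartiles 7.36 and 23.2) in cKO cells, where all peaks had 13.2, and 18.1 (10.7 and 35.0) in Control cells, where all peaks had 19.3. Folds are the authors' own values per peak and are set side by side below without subtraction. Peaks are called best, stronger, high or low by fold alone. The order by p-value differs, and some peaks of low fold had far lower p-values than peaks of higher fold. Many were tied: 26 of 37 cKO and 41 of 55 Control Tmem peaks had the same fold and p-value as another peak of their list, beside 48.5% and 63.7% of all peaks. Tmem11, Tmem150c and Tmem201 each had 1 Control peak at fold 13.7 and the same p-value, so their order cannot be told.

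Peaks at the annotated 5′ end of the transcript were seen for Tmem126a, Tmem126b and Tmem167, in the cKO list. Peaks reached into the first 50 transcribed bases of RefSeq in 3 of 29 cKO peaks whose gene has such a sequence (10.3%, 2.19 to 27.4) and 0 of 44 Control peaks (interval up to 8.04%). Over all genes these shares were 8.66% (7.90 to 9.47) of cKO peaks and 1.35% (1.08 to 1.66) of Control peaks. The first 30 transcribed bases of Tmem126a and Tmem126b (RefSeq, GRCm38.p6, which is the mm10 build) are shown because the cKO peaks cover them in full. Capitals mark the longest run that the pair share.
Tmem126a, chr7:90457174-90457203, minus strand: agAGTCACGTGtgagccaaagatggagctc
Tmem126b, chr7:90475966-90475995, minus strand: cAGTCACGTGaggcgctaagatggcggcgt
The shared run of 9 bases holds CACGTG, a palindrome that reads the same on both strands and was found in 0.706% of all RefSeq windows of the same 30 bases. CACGTG was picked after these 2 sequences were seen, so this percent is a description only. How often 2 genes share a run of 9 bases was not tested. GGAC, the core of the m6A motif, read here on the transcribed strand, was found in 11.2% of RefSeq windows of 30 bases. Neither Tmem126 gene held it there, also not within the first 50 bases. Tmem167 held GGAC in its first 30 bases, upstream of where its peak begins. The rest of the Tmem126a and Tmem126b peaks, 150 and 181 nucleotides wide, was not searched. Both Tmem126 peaks covered all of these 50 bases, and also the start itself, while the Tmem167 peak began after the first 25 bases.

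Both Tmem126 genes, neighbours on chromosome 7 that serve the assembly of respiratory complex I in mitochondria, were in the cKO list alone. Tmem126b had a cKO peak of fold 55.2 in 2 exon blocks, higher than 89.5% of cKO peaks. Tmem126a had a cKO peak of fold 9.56. Tmem135, linked to mitochondrial and peroxisomal dynamics, had a cKO peak of fold 30.5 that the authors placed in a 5′ UTR, 66035 nucleotides inside the RefSeq gene. The other mitochondrial members, Tmem186 (fold 18.5, other exon), a further complex I assembly factor, and Tmem11 (fold 13.7, 3′ UTR), which shapes mitochondria, were in the Control list alone. Of the 14 genes on the mitochondrial list, 5 had a peak, of which 3 were in the cKO list alone and 2 in the Control list alone, beside 23.1% and 33.7% of all genes with a peak. Counts this small, here and in the lists that follow, are a description of these genes.

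Lysosomal and endosomal members were split between both lists (3 genes) and the Control list alone (4), out of 15 genes on the list, beside 43.1% and 33.7% of all genes with a peak. Tmem127, an endolysosomal tumour suppressor that restrains mTORC1, had no cKO peak and 2 Control 3′ UTR peaks. The stronger, of fold 130, was 1107 nucleotides wide (chromosome 2, 127258597 to 127259703), the widest Tmem peak of either list, and the other had fold 25.8. Tmem104 (18.1), the mechanosensitive channel gene Tmem63b (19.3) and Tmem106a (10.1) likewise had their best peak in the 3′ UTR of Control cells. Tmem106b, a lysosomal protein and risk gene for frontotemporal dementia in humans, had its cKO peak in the 3′ UTR (fold 27.2) and its Control peak in coding sequence (10.1). These 2 peaks lay 5269 nucleotides apart on the genome. Tmem59, which takes part in autophagy, had overlapping peaks of fold 20.2 in cKO and 6.58 in Control cells. Tmem9b had overlapping 3′ UTR peaks of fold 6.99 in cKO and 40.3 in Control cells, and a further Control peak in its 5′ UTR (7.65), which was the only Control 5′ UTR peak of a Tmem gene.

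Golgi and trafficking members were in both lists (3 genes) or in the Control list alone (2), out of 10 on the list, beside the same 43.1% and 33.7%. Tmem30a, the shared subunit of flippases that move phospholipids across membranes, had 2 peaks in each list. Its coding sequence peak of fold 1.77 in cKO cells lay within a Control peak of fold 97.0. A second cKO peak (9.38) lay near the gene's start, and a second Control peak (28.2) in the 3′ UTR, where the gene Cox7a2 overlaps. Tmem167, whose fly homologue kish acts in the secretory pathway, had the most peaks of any Tmem gene in 1 list. Its 4 cKO peaks were 1 from the start across coding sequence (fold 18.8) and 3 in the 3′ UTR (33.5, 16.2 and 8.09). Its single Control peak (10.1) lay 3751 nucleotides on the genome from the nearest of them. Tmem115, a Golgi protein of retrograde transport, had overlapping peaks of fold 12.9 in cKO and 54.4 in Control cells. Tmem167b (14.9) and Tmem87b (11.7), of Golgi and endosome traffic, had a 3′ UTR peak in Control cells alone.

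**Figure D4:**
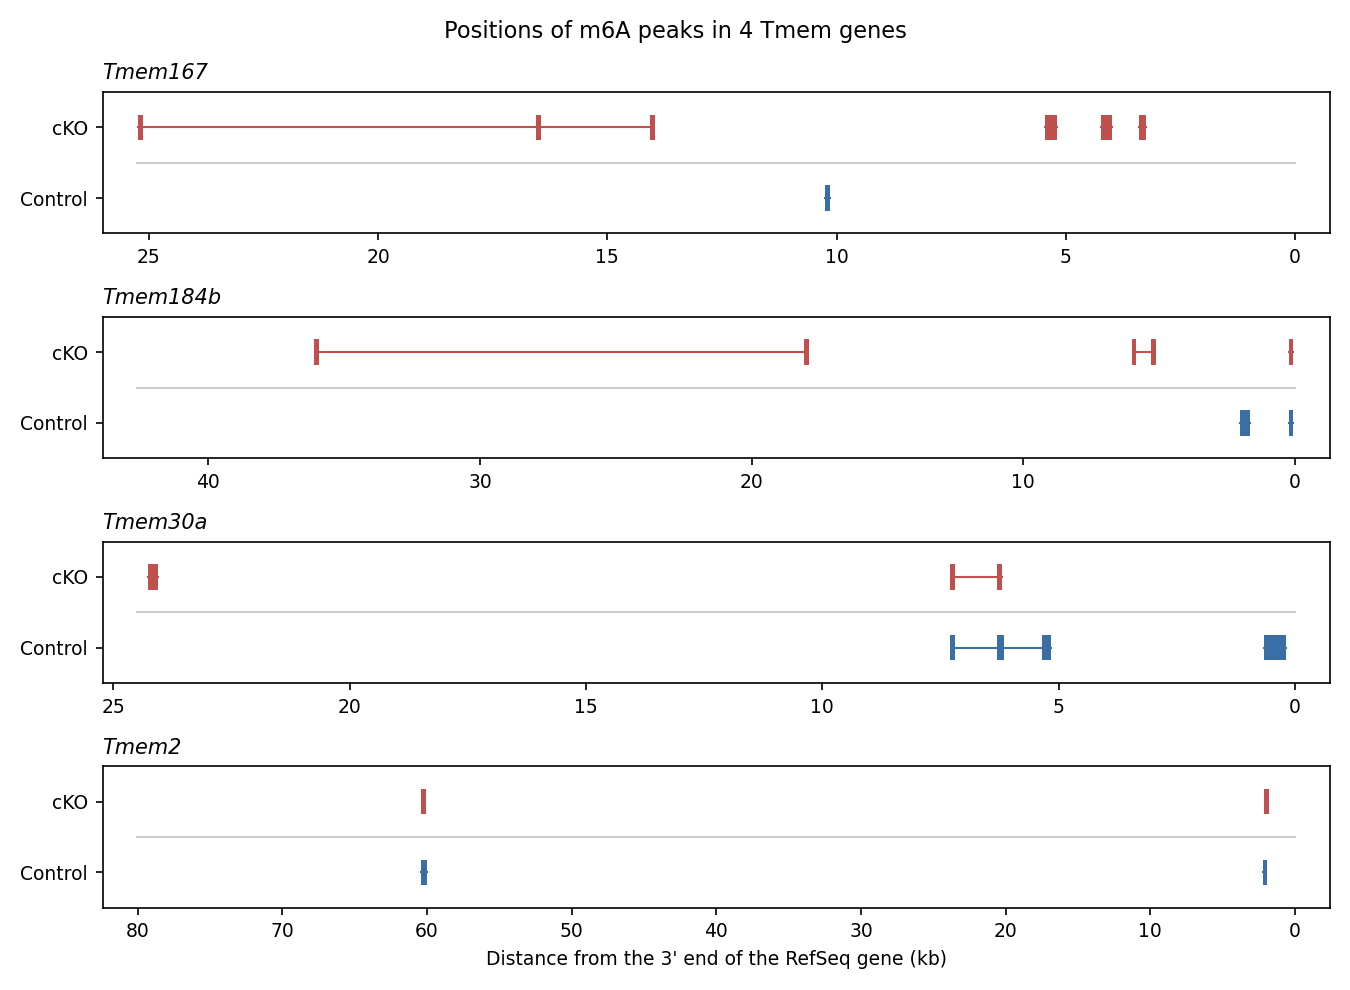
Peaks of Tmem167, Tmem184b, Tmem30a and Tmem2 by distance in kb from the 3′ end of the RefSeq gene, with cKO above Control; blocks are exon blocks, thin lines join blocks of a peak, the grey line is the gene, and narrow blocks are drawn at a minimum width. Tmem167 had 4 cKO peaks and 1 Control peak with no overlap. Of the 2 cKO peaks of Tmem2, 1 lay within a Control peak and 1 overlapped a Control peak in part.

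Endoplasmic reticulum members were in both lists in 3 of 4 cases, out of 21 on the list, beside 43.1% of all genes with a peak. Tmem131, which helps to load collagen for secretion, had coding sequence peaks at separate places, of fold 11 across 4 exon blocks in cKO cells and 14.1 in Control cells. They lay 64150 nucleotides apart on the genome, introns included. In Tmem259 (membralin), which acts in protein degradation at this membrane, a cKO peak of fold 25 overlapped a Control peak of 14.5. The RefSeq span of Grin3b also covers this place. Tmem214 had a 3′ UTR peak in both lists (8.64 in cKO, 28.6 in Control) and a cKO peak in coding sequence (23.2). That coding sequence peak shares bases with a peak listed for Gm43808 on the opposite strand, so its gene of origin is uncertain. Tmem38a, a cation channel that balances calcium release, had a coding sequence peak of fold 68.0 in Control cells alone. The nuclear envelope members Tmem43 (34.2) and Tmem201 (13.7) were also in the Control list alone, in 3′ UTRs.

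Cell surface and signalling members comprised 4 genes in both lists, 2 in the cKO list alone and 2 in the Control list alone, out of 18 on the list, beside 43.1%, 23.1% and 33.7% of all genes with a peak. Tmem2, listed as Cemip2 in RefSeq and described as a hyaluronidase of the cell surface, had 2 peaks in each list, in overlapping pairs. A coding sequence peak of fold 16.5 in cKO cells lay within one of 128 in Control cells (chromosome 19, 21797932 to 21798381 for the Control peak), with 180 shared bases. Near the 3′ end, peaks of 14.3 in cKO and 35.8 in Control cells shared 61 bases. Tmem47, a claudin-like junction protein, had overlapping peaks of 10.5 in cKO cells and 52.9 in Control cells. The authors assigned that cKO peak to coding sequence and the Control peak to the 3′ UTR, although both start at the same base. Tmem132a, which acts in Wnt signalling, had a 3′ UTR peak of 18.4 in cKO cells within one of 23.4 in Control cells, and another Control peak of 35.8. All of its peaks share bases with peaks listed for Slc15a3 on the opposite strand, so the gene of origin is uncertain.

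Tmem176a and Tmem176b, neighbouring genes of a cation channel-like family known from dendritic cells, differed from each other. Tmem176a had the highest fold of any cKO Tmem peak, 228, above 99.0% of cKO peaks, and no Control peak. The RefSeq span of Tmem176b also covers this place. Tmem176b itself had a 3′ UTR peak in both lists, at the low folds of 3.34 in cKO and 4.43 in Control cells. Tmem123 (porimin), a surface mucin-like receptor, had cKO peaks of fold 16.5 in the 3′ UTR and 5.88 in coding sequence, and no Control peak. Tmem119, known from bone formation and microglia, had 2 Control 3′ UTR peaks (24.6 and 22.5) and no cKO peak. Tmem150c (tentonin), linked to mechanosensitive currents, had a Control 3′ UTR peak of 13.7.

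Tmem184b and Tmem184c were both in both lists, each with an overlapping peak. Tmem184c had the highest fold of all Control Tmem peaks, 237, in coding sequence 718 nucleotides wide (chromosome 8, 77596461 to 77597178), and a cKO peak of fold 2.70 inside it. Tmem184b, which acts in endosomes of mouse neurons, had its best Control peak in the 3′ UTR (208, chromosome 15, 79362356 to 79362714), with no cKO counterpart. A further 3′ UTR peak of Tmem184b had identical bounds in both lists, at fold 3.40 in cKO and 13.7 in Control cells. Its remaining cKO peaks lay across a coding junction (23.2) and across a 5′ UTR junction (15.4).

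Of the remaining members in both lists, Tmem51 had overlapping coding sequence peaks of 3.24 in cKO and 39.5 in Control cells. Tmem189, the desaturase of plasmalogen synthesis, had 8.64 in cKO and 27.4 in Control cells, in peaks also listed for Gm20431. Tmem263 had a 3′ UTR peak of 30.5 in cKO cells over one of 8.15 in Control cells, and a Control peak of 34.2 in another exon. Tmem248 had separate peaks, of 8.46 in cKO coding sequence and 20.5 in the Control 3′ UTR.

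Further genes of the cKO list alone were Tmem50a (34.9, 3′ UTR), Tmem116 (7.36, 5′ UTR), the cilium gene Tmem218 (6.37, 3′ UTR) and Tmem134 (5.33). Tmem218 was the single member with a peak among 9 genes of the ciliary list. Further genes of the Control list alone were led by Tmem156 (149), in the 3′ UTR, and by Tmem251 (51.5, coding sequence), needed for the mannose 6-phosphate tag of lysosomal enzymes. Tmem37, a calcium channel subunit-like gene, followed at 21.7. The rest lay between 6.04 and 14.5: Tmem161b, Tmem185b, Tmem120a, Tmem181a, Tmem5 (Rxylt1, a glycosyltransferase acting on dystroglycan), Tmem200b, Tmem178 and Tmem170b.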

How the data were processed

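m6A-RIP and input libraries of cKO and Control stellate cells (2 of each) gave 2 deposited peak lists, 1 per genotype. Per the submitters' processing notes, HISAT2, HOMER and the mm10 build were used, without stated roles; which tool called the peaks, with what settings and how replicates were combined, is not given in the sources used here. Per the file headers, each peak has a p-value (the column score), its log10, a log10 false discovery rate, here both read as a score, and a fold enrichment, a ratio taken as precipitated over input RNA. No Tmem peak had a spreadsheet error in these cells. No count or depth per sample was analysed here.

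Peaks were split into exon blocks and overlapped on the same strand (at least 1 base), and genes were joined by symbol; all 52 members matched RefSeq (GRCm38.p6), 2 of them (Tmem2 and Tmem5) through an older symbol. Shares have exact Clopper-Pearson 95% intervals. Widths are exonic. Distances between peaks and to gene ends are genomic, introns included, and those to gene ends start from the exonic midpoint. The span of another protein-coding RefSeq gene overlapped 6 cKO and 5 Control Tmem peaks. Starts were taken from RefSeq windows of 250 bases before to 50 after. Overlap and interval code was tested on simulated data. Python 3.11.15, pandas 2.3.3, numpy 2.4.6, scipy 1.17.1 and matplotlib 3.10.9 were used. Members and the 7 role lists were chosen with earlier results of these data known. Every member may be named by the rule for named genes, and the 4 genes drawn by position were chosen after their values were seen. Beyond the first 50 transcribed bases described above, peak sequences were not analysed here. Proteins were not analysed either, and alternatives are given in the closing section.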

Additional observations from a re-analysis of the deposited data

How the results depend on the processing

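Of 55 values recomputed under alternatives for 13 results, 46 stayed inside the exact interval of the value reported, or within 1.5 times a count. The alternatives were computed for Tmem genes alone, so no share of all genes stands beside them. With a log10 false discovery rate of -5 or lower, 47.1% of cKO Tmem genes were also in the Control list, 8 genes were in both lists and 13 in Control cells alone, and the median fold was 21.7 in cKO and 35.0 in Control cells; this filter kept 20 cKO and 28 Control Tmem peaks. With folds of at least 10, 11 genes were in both lists and 15.9% of Control Tmem peaks had a counterpart. With at least 50% of both peaks overlapping, 24.3% of cKO and 16.4% of Control peaks had one. Outer spans, ignoring strand and Ensembl identifiers changed no value. Adding 20 genes whose older symbol was Tmem (6 in both lists, 3 in the cKO list alone, 11 in the Control list alone) gave 41.7% of Control genes also in the cKO list. Leaving out peaks also listed under another gene, chosen after seeing the data, gave 41.5%. The 3′ UTR share stayed between 32.1% and 35.3% in cKO cells and between 62.8% and 65.5% in Control cells. No replicate could be left out, since each list is 1 call per genotype. No paired analysis was possible because the lists carry no value per replicate. Depth is unknown, so a missing peak is no evidence of an unmethylated transcript.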
